A study of Homo sapiens with 9 samples.

Results

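Midkine (MDK) is a secreted, heparin-binding growth factor. The data described here are the ribosome footprint reads of its mRNA and of the mRNAs of 4 proteins to which it is known to bind, in human Huh-7 cells treated with a compound that stalls translation. MDK was chosen by its measured value, since its ratio to vehicle with PF8503 was the lowest of all transcripts. The 4 partners, syndecan-1 (SDC1), syndecan-4 (SDC4), the endocytic receptor LRP1 and nucleolin (NCL), were chosen as known binding partners. All 5 were found in both deposited tables, among 9221 gene symbols in all.

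Huh-7 is a human hepatocellular carcinoma line. The cells received 1.5 µM PF8503 (PF-06378503), 1.5 µM PF846 (PF-06446846, spelled PF-067446846 in the sample titles) or 0.5% DMSO as vehicle, each for 1 hr, in biological triplicate, which makes 9 libraries. Ribosome profiling sequences the pieces of mRNA that ribosomes cover, and the values here count reads over the part of each coding sequence that the authors kept, which for stalled transcripts lies past the stall. The values are the authors' means over the libraries of a condition, of reads scaled between libraries. The libraries' own values and depths are not in the tables used here, and the authors' own comparison columns were not used, so the ratios stand here with no error, test or interval. The study's analysis scripts number the replicates differently from the labels, and which libraries entered each mean is therefore not certain. The lane codes in the labels differ between the conditions, so an effect of lane cannot be told apart from one of condition. No mRNA measurement was analysed here, so less mRNA, fewer ribosomes per mRNA and ribosomes held before the counted part cannot be told apart.

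Midkine is made in embryonic tissues and in many carcinomas, hepatocellular carcinoma among them, and is scarce in most adult tissues. It enters the secretory pathway through an N-terminal signal peptide and binds to sulfated sugar chains, above all heparan and chondroitin sulfate, at the surface of cells. Syndecans carry such chains, LRP1 binds and internalizes midkine, and nucleolin, mainly a nucleolar protein, has been described as a low-affinity binding site at the cell surface.

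The PF compounds act on the growing peptide inside the ribosome, so the start of each coding sequence is shown before the values. Below are the first 90 coding bases (30 codons) of the midkine mRNA and of its 4 partners, 5′ to 3′, from the canonical transcripts of GENCODE version 44 on GRCh38. Capitals mark leucine codons.
MDK: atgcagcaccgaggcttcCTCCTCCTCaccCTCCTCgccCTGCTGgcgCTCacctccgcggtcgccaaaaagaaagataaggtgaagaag
SDC1: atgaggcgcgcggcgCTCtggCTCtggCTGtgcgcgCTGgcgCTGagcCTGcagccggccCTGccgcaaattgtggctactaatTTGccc
SDC4: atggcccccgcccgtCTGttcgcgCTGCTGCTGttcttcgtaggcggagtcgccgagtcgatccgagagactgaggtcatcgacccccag
LRP1: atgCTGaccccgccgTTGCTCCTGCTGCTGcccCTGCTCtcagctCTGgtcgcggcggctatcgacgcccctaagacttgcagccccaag
NCL: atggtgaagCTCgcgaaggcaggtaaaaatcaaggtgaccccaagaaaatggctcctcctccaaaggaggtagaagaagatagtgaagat
The MDK bases lie on the forward strand at chr11:46382058-46382133 in exon 2 and chr11:46382294-46382307 in exon 3 of a gene of 5 exons. Those of SDC1 lie on the reverse strand at chr2:20224802-20224867 in exon 1 and chr2:20205401-20205424 in exon 2. Those of SDC4 lie on the reverse strand at chr20:45348325-45348384 in exon 1 and chr20:45335891-45335920 in exon 2. Those of LRP1 lie on the forward strand at chr12:57128965-57129031 in exon 1 and chr12:57138459-57138481 in exon 2. Those of NCL lie on the reverse strand at chr2:231464336-231464353 in exon 1 and chr2:231463245-231463316 in exon 2. MDK, both syndecans and LRP1 begin with a signal peptide, while nucleolin has none.

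The growth factor itself was the member with far fewer counted footprint reads after either compound. In the PF8503 table the authors' mean for MDK was 1918 normalized reads with vehicle and 307 with PF8503, that is 16% of vehicle, a log2 ratio of -2.65. In the PF846 table it was 1740 with vehicle and 653 with PF846, 37.5% of vehicle, a log2 ratio of -1.41. The vehicle means differ because each table was scaled on its own. At the matched dose and time, the log2 ratio of MDK was lower with PF8503 than with PF846 by 1.23, so that the part left with PF846 was 2.35 times that left with PF8503. Its place was the 1st of 9157 transcripts from the lowest with PF8503 and the 4th of 8839 with PF846. The difference between the compounds was the 4th lowest of 8775 transcripts in both tables, and MDK and all 3 transcripts below it had been counted over different codons in the tables. Both ratios share the same vehicle libraries. MDK was chosen for its low ratio with PF8503, so the direction and the rank of its difference partly follow from that choice.

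The partners showed no such drop. For SDC1, which carries heparan and chondroitin sulfate on epithelial cells, the means were 2448 with vehicle and 2773 with PF8503 (log2 ratio 0.18), and 2241 with vehicle and 2378 with PF846 (0.09). For SDC4, the syndecan of focal adhesions, they were 3272 and 3431 with PF8503 (0.07), and 2995 and 2831 with PF846 (-0.08). The sign for SDC4 thus differed between the compounds, with both values inside the central 95% of all transcripts. For LRP1, which takes up many ligands besides midkine, the means were 3605 and 4161 with PF8503 (0.21), and 3300 and 3617 with PF846 (0.13). For NCL, which acts in ribosome synthesis, they were 18736 and 18887 with PF8503 (0.01), and 17150 and 17274 with PF846 (0.01).

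**Figure D1:**
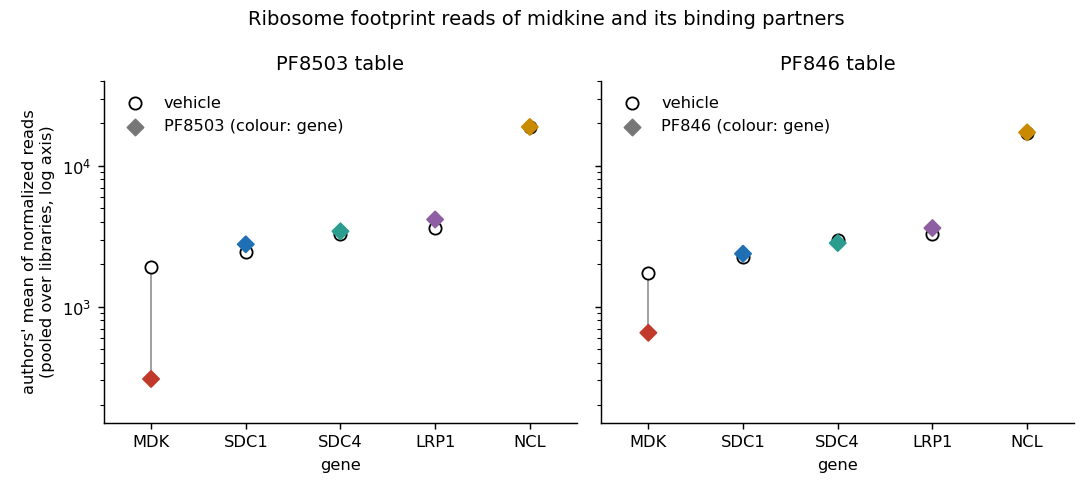
Authors' mean of normalized ribosome footprint reads (log axis) of midkine and its 4 partners, with vehicle (open circles) and with compound (diamonds), in the PF8503 table (left) and the PF846 table (right); the means are pooled over libraries and have no error. MDK drops from 1918 to 307 with PF8503 and from 1740 to 653 with PF846, and the diamonds of the partners lie on or near their circles.

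Each partner was then placed among all transcripts. The central 95% of all log2 ratios ran from -0.32 to 0.28 with PF8503 and from -0.23 to 0.22 with PF846, and the 4 partners were inside that range in both tables. LRP1 and SDC1 lay in its upper part, above 93.9% and 91.5% of transcripts with PF8503 and above 92.0% and 83.8% with PF846. NCL lay near the middle, above 49.7% and 54.5%. SDC4 lay above 69.2% of transcripts with PF8503 and above 18% with PF846. Low values scatter more, so the partners were also set against the transcripts with a mean of at least 1000, which were 2175 with PF8503 and 2011 with PF846. Among these the central 95% was narrower, -0.25 to 0.18 and -0.13 to 0.12, and LRP1 lay above 98.3% and 97.9%, SDC1 above 97.2% and 93.1%, and SDC4 above 75.5% and 7.46%. LRP1 was thus above this narrower range with both compounds, while SDC1, at the upper bound with PF8503, SDC4 and NCL were not past it.

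A change was called where the mean differed at least 2-fold (log2 ratio at or past 1), without a test. Among all transcripts 23 of 9157 (0.251%) were lower by that much with PF8503 and 1 (0.0109%) higher, and 11 of 8839 (0.124%) were lower with PF846 and 0 (0%) higher. Of the 5 members, 1 was lower with each compound and 0 were higher. That member was MDK, which was chosen on this value with PF8503, so nothing can be read from the share. At a log2 ratio at or past 0.5 the background was 1.08% lower and 0.24% higher with PF8503, and 0.396% lower and 0.0792% higher with PF846, and MDK was again the one member past it.

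**Figure D2:**
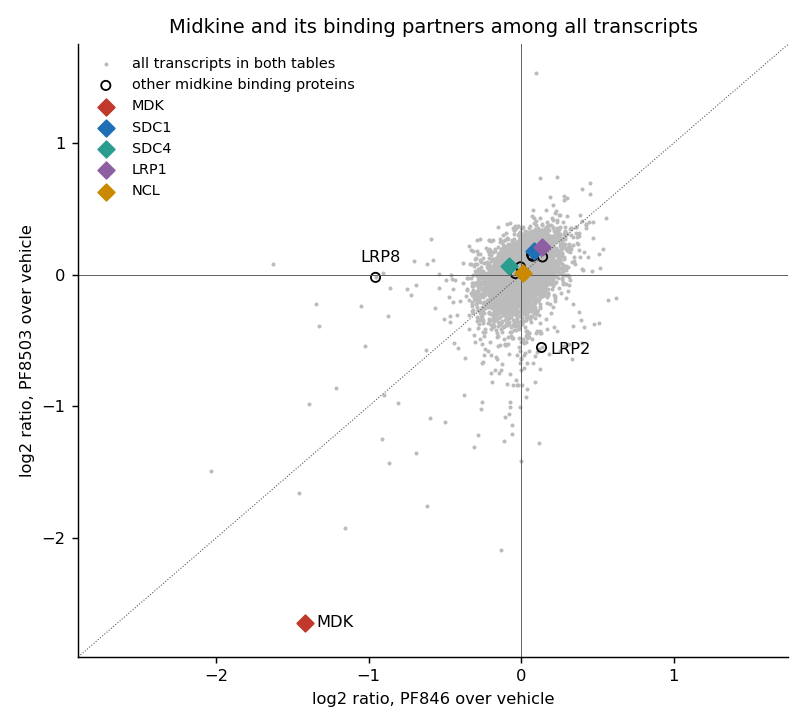
Log2 ratio with PF846 (horizontal) against log2 ratio with PF8503 (vertical) of the 8775 transcripts in both tables (grey), with the 5 members (coloured diamonds), other midkine binding proteins (open circles) and the line of equal ratios (dotted); the axes share the vehicle libraries. MDK (-1.41 and -2.65) is the lowest point on the vertical axis, and SDC1, SDC4, LRP1 and NCL lie in the grey cloud.

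Per codon of coding sequence, the order of the vehicle levels in the PF8503 table was NCL (26.4 reads per codon), SDC4 (16.5), MDK (13.4), SDC1 (7.90) and LRP1 (0.793). MDK, with 143 codons, thus had 16.9 times the level of LRP1 with its 4544 codons, and 1.70 times that of SDC1. With PF8503 the level of MDK was 2.14 reads per codon, and it came after SDC1 (8.95). With PF846 it was 4.57, again after SDC1 (7.67), while in the vehicle of that table it was 12.2, ahead of SDC1 (7.23). The other members kept their order with either compound. Neighbours in this order cannot be separated by their spread, since no spread is given. The levels divide by the whole coding sequence, while reads near its ends, and for some transcripts all reads before the stall, were left out, so the level of a short or stalled transcript such as MDK is understated.

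The authors counted reads only past the codon where compound and vehicle profiles diverge most, where that divergence was large, and otherwise from 10 codons after the start. A start picked at that divergence favours a low ratio. The ranks, and the contrast of MDK with its partners, can therefore set unlike stretches side by side. The vehicle reads counted for a transcript show whether the same codons were used in both tables. For SDC1, SDC4, LRP1 and NCL the vehicle reads in the PF8503 table were 100.0% of those in the PF846 table after scaling. For MDK they were 100.9%, a departure larger than the tolerance of 0.002 on the log2 scale, as for 134 (1.53%) of 8775 transcripts. The codons counted for MDK were therefore not the same in both tables, but differed by few reads.

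The other proteins reported to bind midkine held 2 that stood apart, each with a different compound. Of 16 such genes 8 were listed. Pleiotrophin (PTN, the only other member of the midkine family), the receptor phosphatase PTPRZ1 and the kinases ALK and LTK were not listed, nor were GPC2, CSPG5, LRP1B and ITGA4. With PF8503 LRP2 (megalin, an endocytic receptor of absorptive epithelia) had means of 586 with vehicle and 400 with the compound, a log2 ratio of -0.55, lower than all but 0.841% of transcripts. With PF846 its means were 536 and 588, a log2 ratio of 0.13, and the same codons were counted in both tables. LRP8 (a receptor for reelin) showed the opposite pattern, with means of 148 and 146 with PF8503 (-0.02) and 116 and 59.8 with PF846 (-0.95). Vehicle reads of LRP8 in the PF8503 table were 117% of those in the PF846 table, so a shorter stretch was counted with PF846, and the values of LRP8 do not cover the same codons. None of the 8 was past a 2-fold change with either compound, and their median log2 ratios were 0.04 and 0.04, beside 0.013 and 0.001 for all transcripts. The remaining 6 had log2 ratios between -0.04 and 0.15. Among them ITGB1, the integrin beta-1 subunit that pairs with alpha-6 as a midkine receptor, had means of 11374 and 11497 with PF8503 (0.02) and 10411 and 10537 with PF846 (0.02), and SDC2 had 1577 and 1752 (0.15) and 1444 and 1513 (0.07).

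LRP1 was one of 13 listed genes, of 16, of the receptor family to which LRP1 belongs and its chaperones. With PF8503 10 of the 13 had log2 ratios above 0 and their median log2 ratio was 0.08, and with PF846 these were 7 of 13 and 0.03. LRP1 had the highest log2 ratio of the list with PF8503 (0.21). LRP6, a Wnt co-receptor, had 0.14 and 0.07. LRPAP1, the chaperone that keeps ligands off LRP1 during its transport, had means of 4551 and 4619 with PF8503 (0.02) and 4165 and 4079 with PF846 (-0.03). Among all transcripts 54.7% were above 0 with PF8503 and 50.3% with PF846. None of the 13 was past a 2-fold change.

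SDC1 and SDC4 were among 12 listed genes, of 22, for proteoglycan core proteins. Their log2 ratios ran from -0.31 to 0.25 with PF8503 (median 0.07, 9 above 0) and from -0.08 to 0.10 with PF846 (median 0.05, 8 above 0). The shares above 0 among all transcripts were 54.7% and 50.3%. The core protein with the most reads was glypican-3 (GPC3, a fetal liver antigen found in hepatocellular carcinoma), with means of 12426 and 12320 with PF8503 (-0.01) and 11374 and 11308 with PF846 (-0.01). Perlecan (HSPG2), a proteoglycan of basement membranes, had 3486 and 4002 (0.20) and 3191 and 3287 (0.04). The enzymes that build heparan and chondroitin sulfate, of which 20 of 40 were listed, had no member past a log2 ratio of 0.5, with ranges of -0.16 to 0.24 and -0.32 to 0.21 and medians of 0.04 and -0.02. CHST13, which sulfates chondroitin, had log2 ratios of 0.24 and 0.03, and EXT2, which polymerizes heparan sulfate, -0.07 and -0.13.

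Among 13 listed genes, of 15, for proteins that cut, sort or link syndecans and LRP1, ADAM10 stood apart with PF8503. ADAM10, a membrane protease that sheds the outer part of syndecans and LRP1, had means of 3529 with vehicle and 2105 with PF8503, 59.7% of vehicle, a log2 ratio of -0.75. Only 0.459% of transcripts were lower. With PF846 its means were 3231 and 2923, a log2 ratio of -0.14, over the same codons. ADAM17, the related sheddase, had log2 ratios of -0.10 and 0.09. PDCD6IP (ALIX), which links syndecans through syntenin to exosome formation, had -0.06 and -0.02. The other members of this list had log2 ratios from -0.11 to 0.18 with PF8503 and from -0.30 to 0.16 in the PF846 table, and the list's medians were -0.03 and -0.02.

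**Figure D3:**
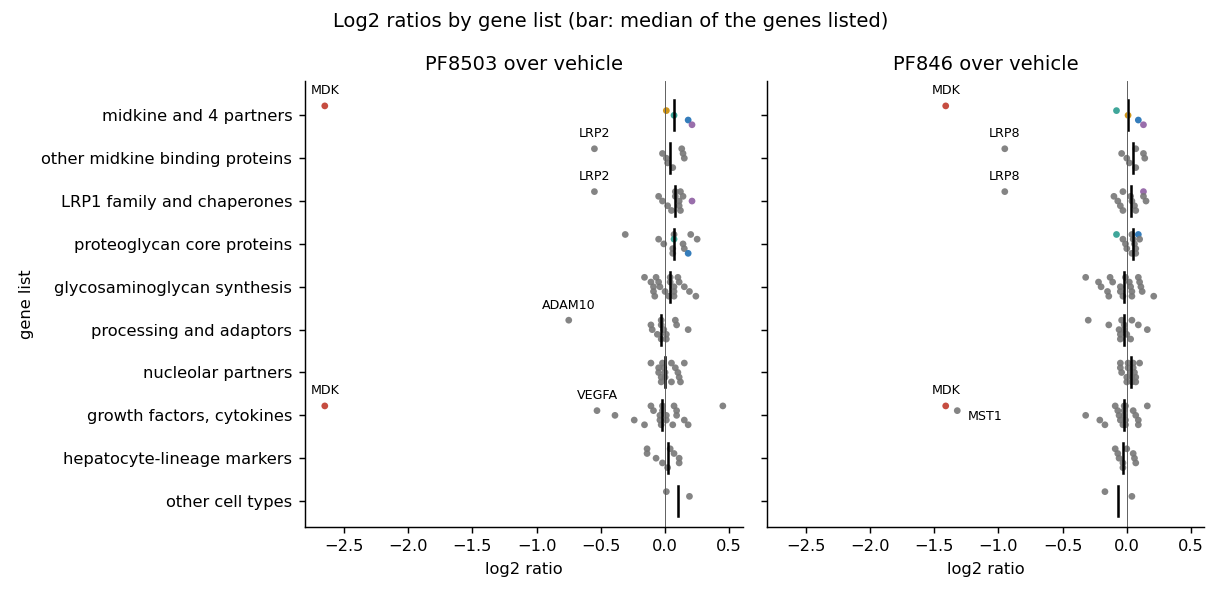
Log2 ratio over vehicle with PF8503 (left) and PF846 (right) of every listed gene in each gene list (points, coloured for the 5 members), with the median of the list (black bar); genes can be in more than 1 list. Names mark log2 ratios at or past 0.5, which are MDK, LRP2, ADAM10 and VEGFA with PF8503 and MDK, LRP8 and MST1 with PF846.

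A leucine-rich start was not particular to midkine among these genes. Of its first 30 codons 8 encode leucine, and 4.2% of 9144 genes have as many. SDC1 also has 8, LRP1 has 9 (2.30% of genes have as many), SDC4 has 4 and NCL has 1, while the median gene has 3. In MDK up to 3 leucine codons stand in a row, as in SDC4, while LRP1 has 5 in a row and none touch in SDC1. The codon used also differed, since 2 of the 8 leucine codons of MDK are CTG, against 5 in SDC1, 4 of 4 in SDC4 and 6 in LRP1. The mean Kyte-Doolittle hydrophobicity of residues 2 to 30, in which higher values mean more hydrophobic, was 0.28 for MDK, 0.86 for SDC1, 0.70 for SDC4, 1.11 for LRP1 and -1.5 for NCL, with a median of -0.37 over all genes. SDC1, SDC4 and LRP1, whose starts are more hydrophobic than that of midkine, had log2 ratios between -0.08 and 0.21 with the compounds. A link between hydrophobicity and the ratio was not tested.

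The leucine counts were set beside the ratios of all transcripts, as a description over genes, which are not independent. The highest class began at 8 leucine codons, the count of MDK. MDK was chosen for its low ratio, so the shares of this class partly restate that choice. Of the 382 transcripts with 8 or more leucine codons 8 (2.09%) were lower at least 2-fold with PF8503, and MDK is one of these. Of 368 such transcripts 8 (2.17%) were lower with PF846, MDK again among them. Most transcripts with such a start were thus not called, SDC1 and LRP1 among them. Over all matched transcripts these shares were 0.253% with PF8503 and 0.125% with PF846. With PF8503 they were 3 of 4112 (0.073%) for 0 to 2 leucine codons, 8 of 3731 (0.214%) for 3 to 5 and 4 of 857 (0.467%) for 6 or 7. With PF846 they were 1 of 3987 (0.0251%), 2 of 3592 (0.0557%) and 0 of 820 (0%), counts too small to show an order. At the looser limit of a log2 ratio at or below -0.5, the PF846 shares rose with the number of leucine codons. They were 0.0502% for 0 to 2, 0.362% for 3 to 5, 0.61% for 6 or 7 and 4.08% for 8 or more. The median log2 ratio with 8 or more was 0.037 with PF8503 and -0.011 with PF846. LRP8, chosen for display after its values were seen, has 17 leucine codons, the most of any gene, 11 of them in a row. Its first 90 coding bases, on the reverse strand at chr1:53327823-53327912 in exon 1, are shown because they are the extreme of this measure among the midkine binding proteins.
LRP8: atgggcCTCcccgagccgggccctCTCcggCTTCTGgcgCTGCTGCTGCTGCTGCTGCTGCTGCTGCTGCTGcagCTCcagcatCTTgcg
LRP8 was at 98.6% of vehicle with PF8503 and at 51.6% with PF846, over the shorter stretch noted above.

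**Figure D4:**
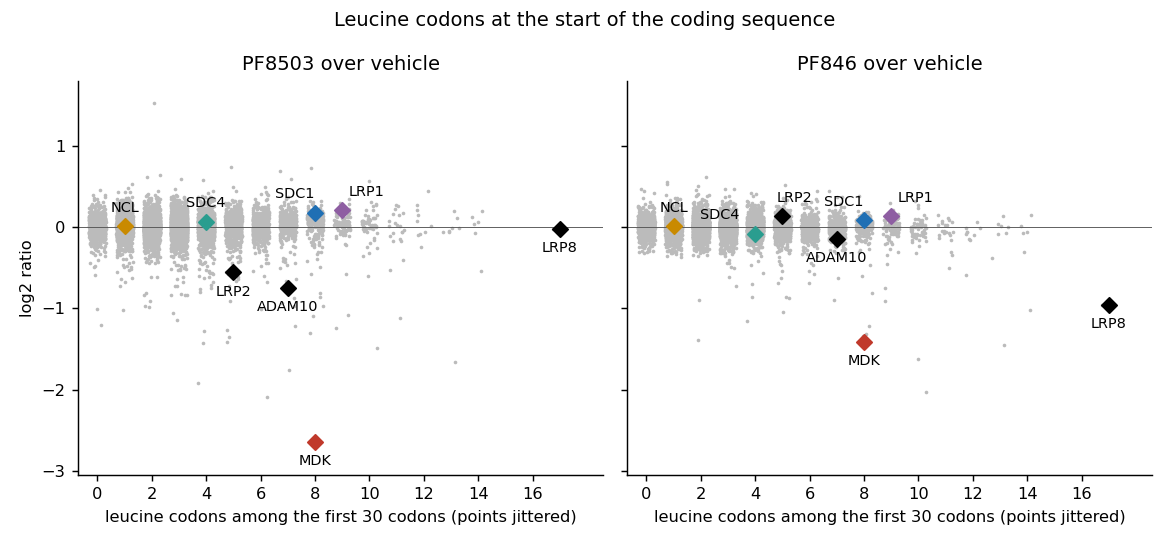
Number of leucine codons among the first 30 codons (horizontal, points jittered) against the log2 ratio with PF8503 (left) and PF846 (right) for transcripts in both tables (grey), with the 5 members (coloured diamonds) and LRP2, LRP8 and ADAM10 (black diamonds). SDC1 (8 leucine codons) and LRP1 (9) lie above 0 with both compounds, while MDK (8) lies at -2.65 and -1.41.

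The transcripts most like MDK in both ratios were found among the 7906 in both tables with a vehicle mean of at least 100, by the distance between the pairs of log2 ratios. The nearest was PCBP1, a poly(C)-binding protein, at 0.77, with means of 8066 and 2128 with PF8503 (-1.92) and 7316 and 3289 with PF846 (-1.15). PLA2G15, a lysosomal phospholipase, lay at 0.99, with 160 and 50.9 (-1.66) and 146 and 53.3 (-1.45). POGLUT1, an O-glucosyltransferase of the endoplasmic reticulum that acts on Notch, lay at 1.19, with 189 and 56.1 (-1.75) and 178 and 116 (-0.62). PCBP2, a paralog of PCBP1, lay at 1.33, with 8575 and 3181 (-1.43) and 7849 and 4314 (-0.86). Their log2 ratios were lower with PF8503 than with PF846 by 0.77, 0.20, 1.13 and 0.57, a direction that their choice by nearness to MDK largely fixes. PCBP2 was counted over the same codons in both tables, while for PCBP1, PLA2G15 and POGLUT1 the vehicle reads in the PF8503 table were 100.9%, 100.6% and 97.4% of those in the PF846 table, so their differences do not cover the same codons.

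The first 90 coding bases of these nearest transcripts are shown to compare with the start of MDK, with leucine codons in capitals.
PCBP1: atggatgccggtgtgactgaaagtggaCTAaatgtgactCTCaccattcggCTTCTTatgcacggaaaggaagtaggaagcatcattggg
PLA2G15: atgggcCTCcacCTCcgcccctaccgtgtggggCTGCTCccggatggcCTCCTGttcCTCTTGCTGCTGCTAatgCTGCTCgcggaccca
POGLUT1: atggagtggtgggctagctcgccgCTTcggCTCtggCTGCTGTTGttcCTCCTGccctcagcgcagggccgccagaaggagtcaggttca
PCBP2: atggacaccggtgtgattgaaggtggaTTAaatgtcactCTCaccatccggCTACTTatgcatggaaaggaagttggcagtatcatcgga
They lie at chr2:70087744-70087833 in the single exon of PCBP1, at chr16:68245427-68245516 in exon 1 of PLA2G15, at chr3:119469022-119469106 in exon 1 and chr3:119469820-119469824 in exon 2 of POGLUT1, and at chr12:53454801-53454869 in exon 2 and chr12:53455347-53455367 in exon 3 of PCBP2, all on the forward strand. PLA2G15 has 13 leucine codons and POGLUT1 has 7, while PCBP1 and PCBP2 have 4 each. The windows of PCBP1 and PCBP2 are identical at 76 of 90 bases, so these paralogs are not independent examples. PCBP1 and PCBP2 act in the nucleus and cytosol and carry no signal peptide.

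Other transcripts at the bottom of each table are given with both compounds. TM4SF4, a tetraspan membrane protein of liver, was next lowest with PF8503, with means of 468 and 110 (-2.09), and had 528 and 483 with PF846 (-0.13). With PF846, HSD17B11, a steroid dehydrogenase of lipid droplets, had 1246 and 404 (-1.62), and with PF8503 it had 1412 and 1491 (0.08). RPL27, a protein of the large ribosomal subunit, had 11761 and 4488 with PF846 (-1.39) and 12833 and 6496 with PF8503 (-0.98). Of these 3, TM4SF4 and HSD17B11 were counted over clearly different stretches, with vehicle reads in the PF8503 table at 81.1% and 103.7% of those in the PF846 table, and RPL27 at 99.9%.

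The labelled cell type was checked against hepatocyte-lineage markers, and all 9 were listed. The authors' vehicle means in the PF8503 table were 212970 for AFP and 148370 for ALB, the highest of the list, and the log2 ratios of the 9 ran from -0.14 to 0.11 with PF8503 and from -0.09 to 0.07 with PF846. The summed level of the list was 526015 with vehicle and 500209 with PF8503, and 481483 and 468308 with PF846. Of 8 markers of other cell types PTPRC, CD3E, COL1A1, COL1A2, VWF and HBB were not listed. LYZ (7769) and PECAM1 (170) were, and their summed level was 7939 with vehicle and 8024 with PF8503, and 7268 and 6493 with PF846.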

How the data were processed

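Ribosome-protected fragments of 9 Huh-7 libraries were sequenced. After trimming with the FASTX toolkit, the authors discarded ribosomal RNA reads with Bowtie, aligned the rest to canonical coding transcripts (GENCODE, GRCh38), kept reads with a single position, and summed those past the point of largest divergence from vehicle or from 10 codons after the start, less the last 10 codons. Transcripts with more than 30 reads were kept. Versions of Bowtie and DESeq are not given in the sources used here. Each deposited signal value is the authors' mean, over the libraries of a condition, of read counts scaled with DESeq size factors. The tables also hold the authors' fold changes, their log2 and p-values, which were not used.

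Computed here were the ratio of the compound mean to the vehicle mean on the log2 scale, its rank, the difference between compounds, and the ratio of vehicle means between tables. The last had a constant of 1.09. No test was made on the pooled means, so a call is a fold change only. Depth per library is unknown. The sums of the means over transcripts were 10521744 and 10488180 for vehicle and PF8503, and 9627557 and 9622385 for vehicle and PF846.

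Coding sequences came from GENCODE version 44, the same build with a newer annotation, whose transcript can differ from the one counted. Of 9221 symbols, 9144 (99.2%) were matched to one, with older symbols matched through RefSeq. The calling step was run on simulated data, which is no test of the calls reported here.

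The members, the 9 further gene lists and all rules were chosen with earlier results of these data known. Genes were named where they are members, where they pass a log2 ratio of 0.5 in either table within a list or have its 2 highest vehicle means, and for the 5 nearest to MDK and the 5 lowest of each table. Results for some of these are not reported here. Cell type markers were named from a fixed list. Genes named beyond these rules are the listed and missing midkine binding proteins, LRP6 and ADAM17, and these were chosen after their values were seen. Alternatives were centring on the median, equal sums, pseudocounts of 1 and 10, a log2 ratio of 0.5, means of at least 100, another constant for the vehicle means and shorter coding lengths. Windows of 20 and 40 codons and means of at least 1000 were added after the values were seen. Tables were handled with pandas 2.3.3 and numpy 2.4.6, and plots drawn with matplotlib 3.10.9, under Python 3.11.15.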

Additional observations from a re-analysis of the deposited data

How the results depend on the processing

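No paired analysis was possible because the tables used here hold means pooled over libraries, with no column for a single replicate, and for the same reason no library could be left out. Under centring on the median, equal sums and pseudocounts of 1 and 10, the log2 ratio of MDK ran from -2.66 to -2.61 with PF8503 and from -1.41 to -1.40 with PF846, LRP1 from 0.19 to 0.21 and stayed at 0.13, and SDC1 from 0.17 to 0.18 and from 0.08 to 0.09. No member's log2 ratio or difference moved by as much as the robust SD of all transcripts, which was 0.112 with PF8503, 0.083 with PF846 and 0.109 for the difference. NCL with PF8503 moved between just under 0 and 0.02, so its sign is not set. With a log2 ratio of 0.5 in place of 1, transcripts called were 99 lower and 22 higher with PF8503 and 35 lower and 7 higher with PF846, by construction of the looser limit. Call counts in the leucine classes and in some gene lists also rose at this limit. With PF8503, for example, the count for 0 to 2 leucine codons went from 3 to 19 of 4112. Call counts under the other alternatives, and all list medians, were within 1.5 times or the robust SD of their values in the report. Taking the constant between the tables from the sums of the vehicle means put the vehicle reads of MDK at 101.0% and those of SDC1, SDC4, LRP1 and NCL at 100.1%. Dividing by coding length less 20 codons gave 15.6 reads per codon for MDK and 18.4 for SDC4, with the order unchanged. In the first 20 codons 1.07% of genes have as many leucine codons as MDK, and in the first 40 codons 9.20%. Transcripts with low means are limited by depth, and with a pseudocount of 10 LRP8 was at -0.85 with PF846 and POGLUT1 at -1.59 with PF8503.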

Other observations

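MDK was one of 21 listed genes, of 42, for secreted growth factors and cytokines, and most of the others differed little from vehicle. MST1 (macrophage-stimulating protein, made by liver) had means of 479 and 365 with PF8503, a log2 ratio of -0.39, and of 417 and 167 with PF846, a log2 ratio of -1.32, the reverse order to MDK. Its vehicle reads in the PF8503 table were 105% of those in the PF846 table. VEGFA, which drives vessel growth, had 168 and 117 (-0.53) with PF8503 and 195 and 184 (-0.09) with PF846, with 78.9% of the vehicle reads of the PF846 table counted in the PF8503 table. The growth factor with the most reads, IGF2, which signals through the insulin-like growth factor receptor, had 8232 and 8763 (0.09) and 7535 and 7370 (-0.03), and CTGF, a matricellular protein, had log2 ratios of 0.01 and -0.02. The list, which includes MDK, had medians of -0.02 and -0.02, with 9 and 5 of 21 above 0. The shares above 0 among all transcripts were 54.7% with PF8503 and 50.3% with PF846.

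The 16 nucleolar partners of nucleolin were all listed. Their log2 ratios ran from -0.11 to 0.15 with PF8503, with 8 above 0, and from -0.05 to 0.10 with PF846, with 13 above 0. The shares above 0 among all transcripts were 54.7% and 50.3%. NPM1, a histone and ribosome chaperone, had means of 11531 and 11130 with PF8503 (-0.05) and 10555 and 10646 with PF846 (0.01), and DDX21, an RNA helicase, had log2 ratios of -0.01 and -0.05.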
